A study of Rattus norvegicus with 12 samples.

Results

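The 6 genes described here encode parts of mitochondrial respiration (Sdha, Atp5f1b, Cox4i1 and Idh2) and mitochondrial uncoupling proteins (Ucp2 and Ucp3). They were picked out by their rat Ensembl gene IDs among 19955 genes in the deposited table; the set was drawn up with earlier results of these data known. The IDs are ENSRNOG00000013331 for Sdha, ENSRNOG00000002840 for Atp5f1b (older name Atp5b), ENSRNOG00000017817 for Cox4i1, ENSRNOG00000013949 for Idh2, ENSRNOG00000017854 for Ucp2 and ENSRNOG00000017716 for Ucp3. The names come with these IDs; the table itself holds no gene names. All 6 passed the filter on low values.

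RNA was sequenced from hearts of wild-type Sprague Dawley rats in 3 groups. Sham hearts had a sham operation, MI hearts had a myocardial infarction operation, and Patch hearts had patches sewn with silk thread to the edge of the infarct. The labels give no age, sex, time after surgery, infarct size, patch material or part of the heart for any group, although the series title speaks of left ventricular myocardium. The table gave 2 sham, 4 MI and 4 Patch libraries, called here by its column names, and 2 further columns named ctrl matched no label and were not used. The labels list 4 sham samples, and whether the ctrl columns are the other sham libraries is not known, so the sham values below rest on 2 libraries. Values are signal, which is reads divided by one factor per library. The factor differed by group: 1 read was worth 1.10 to 1.11 units of signal in sham, 0.790 to 0.929 in MI and 0.996 to 1.12 in Patch.

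In mitochondria, the respiratory chain passes electrons from fuels to oxygen and pumps protons across the inner membrane, and ATP synthase uses the returning protons to make ATP. Uncoupling proteins are carriers of the same membrane; they are named for letting protons return without making ATP, and what UCP2 and UCP3 carry in heart is debated. Heart muscle is among the tissues richest in mitochondria and draws most of its ATP from oxidation of fatty acids.

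Recovered depth was 11420710 to 14110864 reads per library. One library stood apart: MI2 had 5474 genes at 0 reads and 169 at 1 read, against 2400 to 3335 and 632 to 979 in the other 9 libraries, and each gene's tests against MI are therefore also given without it. The sham group held only 2 libraries, and the labels do not say whether samples came from separate animals, so p-values measure the spread between these samples. Unless stated, limma fitted all 3 groups together with 1 shared spread per gene. Leaving out a library of the group not compared therefore changes the p-value but not the difference. Spread was unequal: for Sdha the SD of log2(signal + 1) was 0.027 in sham, 0.618 in MI and 0.138 in Patch. The marker genes of heart muscle, fibroblasts and leukocytes were not analysed here, because no table used here pairs the IDs with names. In whole tissue, fewer cells of a type and less RNA per cell cannot be told apart.

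All 4 respiration genes were lower in every MI library than in either sham library, as were 18.6% of all genes tested. The MI means of the 4 respiration genes were 0.377 to 0.446 times the sham means. In Patch their means were 1.99 to 2.22 times those of MI, or 2.62 to 3.04 times those of MI without MI2. Of the 6, Ucp3 had the lowest MI level relative to sham, 0.161 times the sham mean. The fall of Ucp3 depended on single libraries. As a difference between group means of log2(signal + 1), it was −3.09 with all, −2.34 without sham1 and −3.84 without sham2. For Ucp2 the MI and sham values overlapped, while its Patch mean was 1.47 times that of MI. The Ucp2 sham libraries lay farther apart than any other libraries of the series for that gene.

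**Figure D1:**
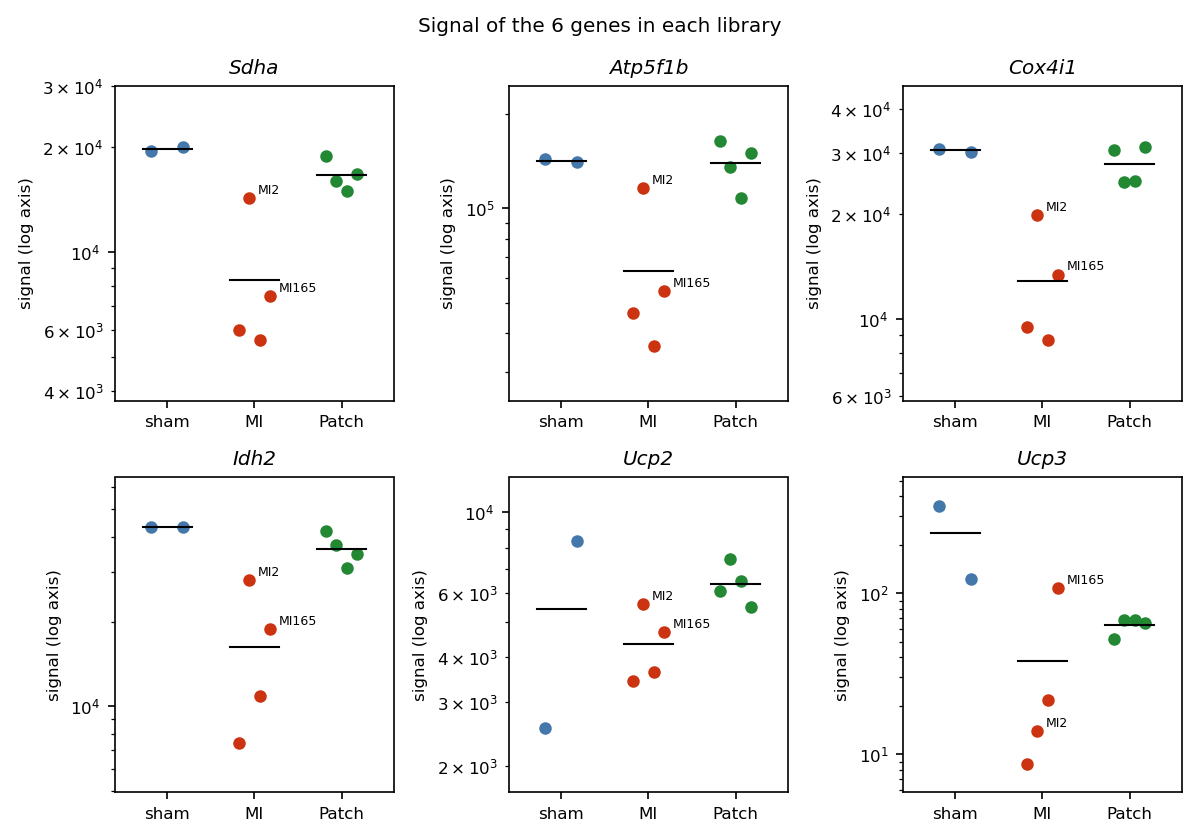
Signal (log axis) of the 6 genes in each library of the sham (2), MI (4) and Patch (4) groups; points are libraries and black lines are group means. In Sdha, Atp5f1b, Cox4i1 and Idh2 the sham points nearly coincide and MI2 lies above the other MI libraries, whereas in Ucp3 the highest MI library is MI165.

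Sdha encodes the flavoprotein subunit of succinate dehydrogenase, which is both complex II of the respiratory chain and an enzyme of the TCA cycle. Its signal was 19483 and 20010 in sham1 and sham2. In MI it was 5968, 14338, 5619 and 7480 in MI1, MI2, MI162 and MI165. In Patch it was 18845, 15980, 15024 and 16776 in P695, P697, P699 and P985. The 3 groups did not overlap: each MI library lay below each Patch library, and each Patch library lay below both sham libraries. Sdha fell by 1.35 on the log2 scale in MI against sham (SE 0.346, limma adjusted p 0.0262). It rose by 1.10 in Patch against MI (SE 0.282, limma adjusted p 0.0310). The first call was lost in limma without sham1 (adjusted p 0.153), sham2 (0.161) or MI162 (0.0595), and the second without sham1 (0.0509), sham2 (0.0509), MI1 (0.0607), MI162 (0.0903), MI165 (0.0618), P695 (0.102), P697 (0.0751) or P985 (0.0860). With all libraries, quantile scaling (log2 differences −0.93 and 0.79, limma adjusted p 0.0778 and 0.0700) and a fit of only the 2 groups compared (0.104 and 0.0502) also ended both calls, and leaving out the mean-variance trend ended the second (0.0558). Scaling to total reads gave log2 differences of −1.11 and 0.92 and kept both calls (limma adjusted p 0.0370 and 0.0391). Without MI2 the log2 differences were −1.65 and 1.40 (limma adjusted p 0.000679 and 0.000636). Fitted with only sham1, sham2, MI1 and MI2, the first was −1.09 and was not called (limma adjusted p 0.371). That fit called 2 of 16668 genes, so it could hardly call any member. With only MI162, MI165 and the Patch libraries the second was 1.36 and was called (limma adjusted p 0.00259), as were 5782 of 17122 genes.

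Cox4i1 encodes the common isoform of subunit 4 of cytochrome c oxidase, complex IV, which hands electrons to oxygen. Its signal was 30722 and 30250 in sham1 and sham2. In MI it was 9505, 19851, 8715 and 13400 in MI1, MI2, MI162 and MI165. In Patch it was 30603, 24719, 24981 and 31141 in P695, P697, P699 and P985. The MI libraries lay below all sham and Patch libraries, while P695 and P985 reached the sham level. The fall in MI against sham was −1.32 (log2, SE 0.352, limma adjusted p 0.0298) and the rise in Patch against MI was 1.18 (log2, SE 0.288, limma adjusted p 0.0263). The fall was not called in limma without sham1 (adjusted p 0.171), sham2 (0.168) or MI162 (0.0673), nor the rise without MI162 (0.0774), P695 (0.0891), P697 (0.0612) or P985 (0.0838). Quantile scaling also ended both calls (log2 differences −0.95 and 0.82, limma adjusted p 0.0761 and 0.0652), and a fit of only the 2 groups compared ended the fall (0.116). Without MI2 the differences were −1.56 and 1.42 (limma adjusted p 0.00214 and 0.00148). Fitted with only sham1, sham2, MI1 and MI2, the first was −1.15 and was not called (limma adjusted p 0.377), in a fit that called 2 of 16668 genes. With only MI162, MI165 and the Patch libraries the second was 1.36 and was called (limma adjusted p 0.00642), as were 5782 of 17122 genes.

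Idh2 encodes the mitochondrial isocitrate dehydrogenase that makes NADPH, a reductant used against peroxides. The sham libraries were almost equal, at 43252 and 43122. In MI its signal was 7426, 28123, 10846 and 18799 in MI1, MI2, MI162 and MI165. In Patch it was 42026, 37247, 30947 and 34772 in P695, P697, P699 and P985. The groups did not overlap, with MI lowest and sham highest, although P695 came close to the sham level. Idh2 fell by 1.59 on the log2 scale in MI against sham (SE 0.475, limma adjusted p 0.0453) and rose by 1.33 in Patch against MI (SE 0.388, limma adjusted p 0.0463). Both calls lay close to the threshold: leaving out any library except MI2 ended each (limma adjusted p 0.0542 to 0.213 and 0.0612 to 0.133), and edgeR gave 0.0508 and 0.0620. Quantile scaling (limma adjusted p 0.0797 and 0.0854), scaling to total reads (0.0598 and 0.0556), no filter on low values (0.0670 and 0.0691), no mean-variance trend (0.0620 and 0.0680) and a fit of only the 2 groups compared (0.145 and 0.0692) ended both as well. Both calls were kept by DESeq2 on recovered reads (adjusted p 0.00620 and 0.00698) and by sample weights (limma adjusted p 0.00247 and 0.00356). A stricter filter, at an average of 10, kept them too (limma adjusted p 0.0343 and 0.0368). So did adding 0.5 (0.0454 and 0.0466) or 5 (0.0485 and 0.0488) to the signal instead of 1. Without MI2 the differences were −1.91 and 1.65 (limma adjusted p 0.00392 and 0.00365). Fitted with only sham1, sham2, MI1 and MI2, the first was −1.58 and was not called (limma adjusted p 0.380), in a fit that called 2 of 16668 genes. With only MI162, MI165 and the Patch libraries the second was 1.34 and was called (limma adjusted p 0.0119), as were 5782 of 17122 genes.

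Atp5f1b encodes the catalytic beta subunit of ATP synthase. Signal reached 143311 and 139874 in sham1 and sham2. The MI values were 46213, 115734, 36413 and 54461 in MI1, MI2, MI162 and MI165. The Patch values were 163506, 135713, 107891 and 149436 in P695, P697, P699 and P985. All MI libraries lay below sham, but MI2 lay above P699. By number of reads, which also grows with transcript length, Atp5f1b ranked between 2 and 5 among all genes of each sham and Patch library and of MI2, and at 10, 16 and 10 in MI1, MI162 and MI165.

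The differences of Atp5f1b were about as large as those of Sdha and Cox4i1 but did not pass the threshold in the limma fit of all libraries: the log2 difference was −1.31 in MI against sham (SE 0.642, limma adjusted p 0.192) and 1.27 in Patch against MI (SE 0.524, limma adjusted p 0.127). Its fitted SE was the largest of the 4 respiration genes. When the variance was not allowed to follow the mean, the SEs were 0.409 and 0.334 (limma adjusted p 0.0745 and 0.0590). With sample weights limma called both (−1.56 and 1.57, adjusted p 0.0200 and 0.0116). On the recovered reads DESeq2 called both (adjusted p 0.0173 and 0.00437) and edgeR called neither (adjusted p 0.0961 and 0.0662). Without MI2 limma called both, and the differences were −1.65 and 1.61 (adjusted p 0.0176 and 0.00934). With only MI162, MI165 and the Patch libraries the second was called too (1.63, limma adjusted p 0.0298), as were 5782 of 17122 genes. With only sham1, sham2, MI1 and MI2 the first was −0.95 and was not called (limma adjusted p 0.765), in a fit that called 2 of 16668 genes. With quantile scaling the differences were −0.49 and 0.83 (limma adjusted p 0.598 and 0.255).

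Of the 6 genes, 4 were called lower in MI than in sham and 0 higher; over all 17091 genes tested, 8.12% were called lower and 7.3% higher (15.4% in either direction). In Patch against MI, 3 of the 6 were called higher and 0 lower, against 7.72% and 5.45% of all genes (13.2% in either direction). The median log2 difference of the 4 respiration genes was −1.34 in MI against sham and 1.23 in Patch against MI, where the medians over all genes were 0.012 and 0.0023. Without regard to p, the MI values lay wholly below sham in 5 of the 6 genes, against 18.6% of all genes (wholly above, 0 of the 6 and 17.1%). The Patch values lay wholly above MI in 3 of the 6, against 9.81% (wholly below, 0 of the 6 and 7.79%). In CPM (reads scaled to the total of each library) Ucp3 dropped out of the first count, leaving 4 of the 6 (11% of all genes), and the second stayed at 3 (6.01%). Without MI2 the first was 5 (24.5% of all genes) and the second was also 5 (17.5%), with Atp5f1b and Ucp2 added. Both comparisons use the same MI libraries. Leaving out MI162 brought the 4 calls for MI against sham to 0, while those called lower over all genes fell from 1388 to 754. The 3 calls for Patch against MI came to 0 without MI162, P695, P697 or P985. Those called higher over all genes then fell from 1320 to 377, 101, 337 and 150, in that order. Without MI1 the Patch calls numbered 1, against 961 over all genes. Fits without sham1 or sham2 leave 1 sham library, so their calls are not counted here. With all libraries, quantile scaling left 1 and 0 calls (1193 lower and 1233 higher over all genes). Fitting only the 2 groups compared left 0 and 1 (162 lower and 806 higher over all genes). Without MI2 the members called numbered 5 for MI against sham and 4 for Patch against MI, but calls over all genes rose too. Of 17109 genes, 2482 were then called lower in MI than in sham, against 1388 of 17091 with all libraries. Those called higher in Patch than in MI numbered 2485, against 1320 with all libraries.

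Counted together, reads of the 4 respiration genes made up 1.74% and 1.74% of all recovered reads in sham1 and sham2. In MI1, MI162 and MI165 the share was 0.620%, 0.546% and 0.840%, and in MI2 it was 1.48%. In Patch it was 1.70% ± 0.199 (SD, n = 4), from 1.43% in P699 to 1.88% in P695. MI2 therefore lay above the lowest Patch library, while the other MI libraries lay below every sham and Patch library.

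**Figure D2:**
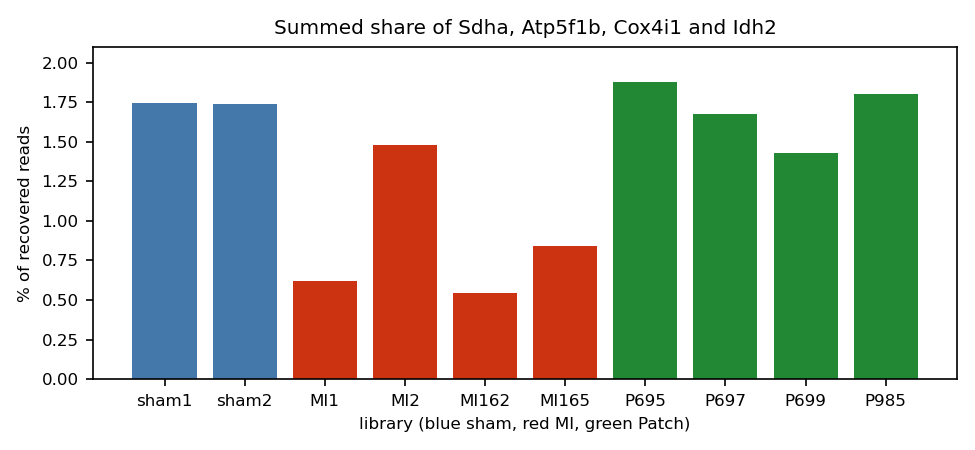
Reads of Sdha, Atp5f1b, Cox4i1 and Idh2 summed, as a percent of all recovered reads in each library (bars; blue sham, red MI, green Patch). The sham bars stand at 1.74%, the MI bars at 0.546 to 1.48% and the Patch bars at 1.43 to 1.88%.

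MI2 was the highest MI library for each of the 4. Its signal was 2.26 times the mean of MI1, MI162 and MI165 for Sdha, 2.53 times for Atp5f1b, 1.88 times for Cox4i1 and 2.28 times for Idh2. Set against those 3 libraries alone, the sham mean was 3.11-fold higher for Sdha, 3.10-fold for Atp5f1b, 2.89-fold for Cox4i1 and 3.50-fold for Idh2. How far the state of the MI2 library bears on its levels was not tested. Lower levels of these genes in MI libraries were found with and without it.

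Ratios between the respiration genes show how alike their levels were from library to library. The log2 ratio of Sdha to Atp5f1b was −2.84 ± 0.052 (SD, n = 2) in sham and −2.88 ± 0.138 (SD, n = 4) in MI, so the MI and sham means of both differed by nearly the same factor. For Sdha to Cox4i1 it was −0.63 ± 0.043 (SD, n = 2) and −0.65 ± 0.153 (SD, n = 4). In Patch the ratio was −3.05 ± 0.140 (SD, n = 4) for Sdha to Atp5f1b and −0.74 ± 0.111 (SD, n = 4) for Sdha to Cox4i1. Idh2 varied more in MI: the ratio of Sdha to Idh2 was −1.13 ± 0.030 (SD, n = 2) in sham and ranged from −1.33 in MI165 to −0.32 in MI1. In Patch that ratio was −1.12 ± 0.086 (SD, n = 4). These ratios are a description. All pairs of the 6 genes in MI against sham and in Patch against MI made 30 exact tests. Adjusted over all 30, none could pass with so few libraries.

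Likeness was measured as the root-mean-square distance between 2 genes' centred log2 profiles over the 10 libraries, among genes whose signal averaged 10 or more. Sdha and Cox4i1 lay 0.114 apart. Of 13941 other genes, Sdha was the 16th nearest to Cox4i1, and Cox4i1 the 32nd nearest to Sdha. Sdha was the 24th nearest to Atp5f1b, and Atp5f1b the 69th nearest to Sdha and the 122nd nearest to Cox4i1. Idh2 was farther away, at 0.262 from Sdha and 0.264 from Cox4i1, and ranked 528th and 530th from them. The gene nearest to Sdha was ENSRNOG00000003163, at 0.067, and the gene nearest to Idh2 was ENSRNOG00000012181, at 0.041; neither carries a name here. Ucp2 and Ucp3 lay 1.53 apart, and 94.0% of genes were nearer to Ucp2 than Ucp3 was, and 56.5% were nearer to Ucp3 than Ucp2 was. These distances hold the differences between groups as well as those within them, and they describe these libraries only.

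**Figure D3:**
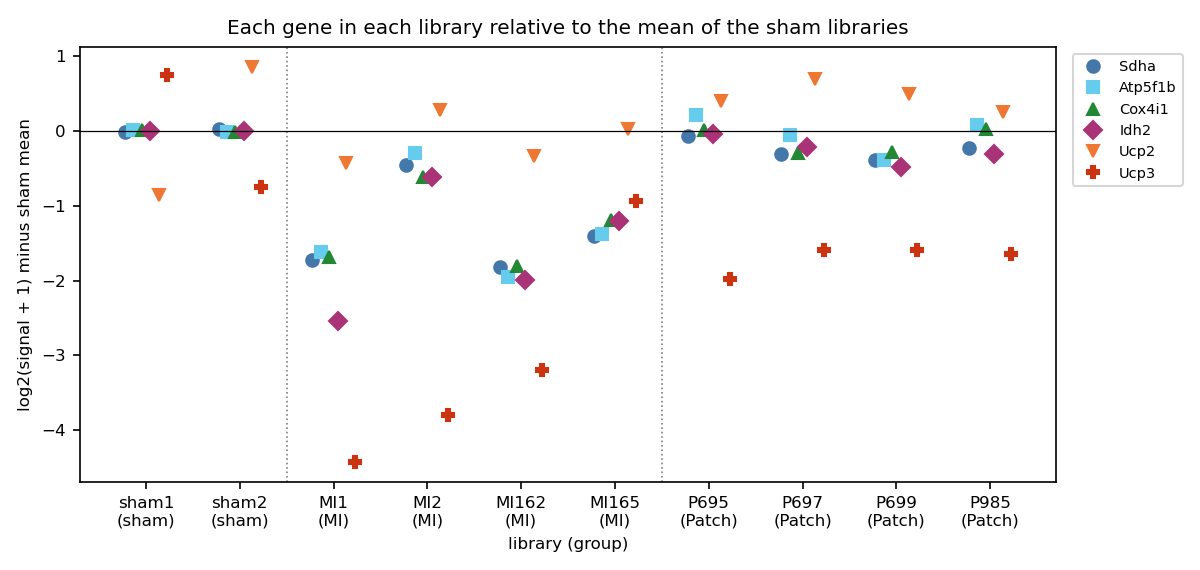
log2(signal + 1) of each gene in each library minus its mean over the 2 sham libraries; each symbol is 1 gene and dotted lines part the groups. The 4 respiration genes lie lowest in MI1, MI162 and MI165; in MI1 Idh2, at −2.54, lies below the other 3, at −1.73 to −1.62. Ucp3 lies at −4.42 in MI1 and −0.94 in MI165, and the Ucp2 and Ucp3 points swap places between sham1 and sham2.

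Promoters of the respiration genes are shown because their levels were lower in all MI than in all sham libraries, and that of Ucp3 because its MI and sham levels lay farthest apart. The sequences are RefSeq's, build GRCr8, which is not the build named in the submitters' processing notes; all 6 genes matched by symbol. The 250 bases before each annotated start are given 5′ to 3′ on the gene's strand. Capitals mark matches, on either strand, to 5 motifs: that of nuclear respiratory factor 1, the ETS factor motif CCGGAAG, the nuclear receptor half-site AGGTCA, the GC box GGGCGG and the CCAAT box.
Sdha, chr1:30764303-30764552, plus strand: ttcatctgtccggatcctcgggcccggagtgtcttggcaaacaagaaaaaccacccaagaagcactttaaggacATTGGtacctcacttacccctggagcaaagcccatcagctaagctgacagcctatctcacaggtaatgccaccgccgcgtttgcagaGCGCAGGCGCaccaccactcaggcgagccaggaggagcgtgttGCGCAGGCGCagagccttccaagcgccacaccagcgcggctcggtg
Atp5f1b, chr7:1099808-1100057, plus strand: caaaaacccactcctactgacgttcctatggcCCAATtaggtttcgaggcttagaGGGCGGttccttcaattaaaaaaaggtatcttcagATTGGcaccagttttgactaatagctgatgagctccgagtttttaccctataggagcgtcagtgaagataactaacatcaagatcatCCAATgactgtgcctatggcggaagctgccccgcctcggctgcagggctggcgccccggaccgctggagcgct
Cox4i1, chr19:65630133-65630382, plus strand: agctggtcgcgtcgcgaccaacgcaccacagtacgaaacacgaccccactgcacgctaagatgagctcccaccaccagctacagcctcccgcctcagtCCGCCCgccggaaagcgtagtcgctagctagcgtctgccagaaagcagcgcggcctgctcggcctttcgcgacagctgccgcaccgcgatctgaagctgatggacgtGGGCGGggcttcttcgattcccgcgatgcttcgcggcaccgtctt
Idh2, chr1:143467249-143467498, minus strand: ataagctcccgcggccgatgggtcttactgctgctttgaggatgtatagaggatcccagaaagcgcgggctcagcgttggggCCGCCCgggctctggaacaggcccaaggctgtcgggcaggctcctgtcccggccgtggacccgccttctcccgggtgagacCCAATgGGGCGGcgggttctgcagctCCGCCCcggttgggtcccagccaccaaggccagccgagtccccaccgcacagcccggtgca
Ucp3, chr1:164227660-164227909, plus strand: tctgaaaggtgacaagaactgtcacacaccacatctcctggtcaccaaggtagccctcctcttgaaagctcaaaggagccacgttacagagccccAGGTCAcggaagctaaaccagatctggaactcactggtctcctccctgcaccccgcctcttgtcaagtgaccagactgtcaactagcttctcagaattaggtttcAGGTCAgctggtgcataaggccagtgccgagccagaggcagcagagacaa

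The motifs were also looked for in the 50 bases after the start. In that window of 300 bases, Sdha held 3 matches to the nuclear respiratory factor 1 motif, which 4.25% of 33469 rat promoters of the same length hold. The last of them spans the start, chr1:30764551-30764562: tGCGCAAGCGCa. Cox4i1 held 2 matches to the ETS motif, just after its start, chr19:65630385-65630413: tCTTCCGGtgcgggacccgctCTTCCGGt. That motif occurs in 8.75% of promoters. Each of these motifs was found in 1 of the 4 respiration promoters. A GC box was found in 3 of the 4 (33.1% of all promoters) and a CCAAT box in 3 of the 4 (37.5%). Ucp3 held AGGTCA at 2 places; 0 of the 4 respiration promoters and 16.2% of all promoters held it. Longer forms that contain this half-site, AAGGTCA (4.61% of all promoters) and its direct repeat with 1 base between the copies (0.0538%), were not in any of the 6 windows. Ucp2 held none of the 7 motifs searched. A match is a description of letters and was not tested as a binding site.

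Ucp3 encodes the uncoupling protein found mainly in skeletal muscle, heart and brown fat. Its signal was 349 in sham1 and 122 in sham2. In MI it was 8.69, 13.9, 21.6 and 107 in MI1, MI2, MI162 and MI165, and in Patch 51.7, 68.1, 67.8 and 65.5 in P695, P697, P699 and P985. On the deposited scale all MI and Patch libraries lay below both sham libraries, and MI165 lay above the Patch range while the other MI libraries lay below it. In CPM, however, MI165 (9.59) lay above sham2 (9.11). These are low counts: 11, 15, 26 and 132 reads in MI1, MI2, MI162 and MI165, against 314 and 111 in sham1 and sham2. The exact 95% Poisson interval for the 11 reads of MI1 is 5.49 to 19.7 reads and for the 26 reads of MI162 17.0 to 38.1, counting error only; the intervals of MI165 (110 to 157) and sham2 (91.3 to 134) overlap.

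Ucp3 fell by 3.09 on the log2 scale in MI against sham (SE 0.791, limma adjusted p 0.0262). The call was lost in limma without sham1 (log2 difference −2.34, adjusted p 0.235), sham2 (−3.84, 0.0980) or MI162 (−3.05, 0.0554), and also without the mean-variance trend (0.0556) or with only the 2 groups compared (0.0990). edgeR on the recovered reads kept it (log2 difference −2.62, adjusted p 0.0483). Without MI2 it was −2.85 (limma adjusted p 0.0249). Fitted with only sham1, sham2, MI1 and MI2, it was −4.11 and was not called (limma adjusted p 0.148), in a fit that called 2 of 16668 genes. In Patch against MI the log2 difference was 1.39 (SE 0.646, limma adjusted p 0.172); without MI2 it was 1.15 (limma adjusted p 0.234), and without MI165 it was 2.11 (limma adjusted p 0.0248). With edgeR it was 0.74, with sample weights 0.86, and with only MI162, MI165 and the Patch libraries 0.37, none of which passed.

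The order of the MI libraries differed between Ucp3 and the respiration genes. In MI2, where those genes were highest among the MI libraries, Ucp3 signal (13.9) lay between those of MI1 (8.69) and MI162 (21.6). In MI165 Ucp3 was 0.94 below the sham mean on the log2 scale and Sdha 1.40 below it. The part of the low counts in these differences was not tested.

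Ucp2 encodes the uncoupling protein found in many tissues, including cells of the immune system. Its signal was 2539 in sham1 and 8319 in sham2. In MI it was 3425, 5581, 3632 and 4669 in MI1, MI2, MI162 and MI165, and in Patch 6071, 7435, 6465 and 5490 in P695, P697, P699 and P985. The sham libraries thus held both the lowest and the highest value of the 10, and MI and Patch overlapped only through MI2 and P985. Ucp2 did not pass the threshold in MI against sham (log2 difference −0.12, SE 0.383, 95% interval −0.96 to 0.73, limma adjusted p 0.869), and the sign turned without sham2 (0.74) and when libraries were scaled to total reads (0.13) or by quantiles (0.19). In Patch against MI the log2 difference was 0.58 (SE 0.313, 95% interval −0.11 to 1.26, limma adjusted p 0.239), or 0.33 with quantile scaling, with 15 of 16 pairs of a Patch and an MI library higher in Patch. Without MI2 the log2 differences were −0.25 and 0.71 (limma adjusted p 0.673 and 0.132). With only MI162, MI165 and the Patch libraries, Ucp2 passed in Patch against MI (log2 difference 0.62, limma adjusted p 0.0271), as did 5782 of 17122 genes.

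The sham libraries differed more in the uncoupling genes than in the respiration genes. From sham1 to sham2, Ucp2 was 3.28-fold higher and Ucp3 was 2.85-fold lower, while for each respiration gene the higher sham library exceeded the lower by 1.03-fold or less. Of all genes tested, 5.13% differed between the sham libraries as much as Ucp2 did and 7.45% as much as Ucp3, where the median absolute log2 difference was 0.240. Ucp3 and Ucp2 are neighbours on chromosome 1 with no annotated gene between them in RefSeq's GRCr8. The log2 ratio of Ucp2 to Ucp3 was 2.86 and 6.08 in sham1 and sham2, 5.43 to 8.55 in MI and 6.37 to 6.85 in Patch. For Ucp2 and Ucp3, comparisons with sham therefore rest on 2 libraries that disagree.

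Patch was also compared with sham. No member passed, and neither did any other gene (0 of 17091, 0%; 524 genes had an unadjusted limma p under 0.05, DESeq2 called 15 and edgeR 0). These intervals use a spread shared with the MI libraries. The log2 difference was −0.25 for Sdha (95% interval −1.01 to 0.51), −0.04 for Atp5f1b (−1.45 to 1.37), −0.14 for Cox4i1 (−0.91 to 0.64) and −0.26 for Idh2 (−1.31 to 0.78). It was 0.46 for Ucp2 (−0.38 to 1.30) and −1.70 for Ucp3 (−3.44 to 0.04), each with a limma adjusted p of 1. Fitted with the sham and Patch libraries alone, the intervals were narrower: −0.61 to 0.11 for Sdha, −0.85 to 0.76 for Atp5f1b, −0.57 to 0.30 for Cox4i1 and −0.74 to 0.21 for Idh2. For Ucp2 that interval was −0.42 to 1.34, and for Ucp3 it was −2.56 to −0.84, below 0, with a limma adjusted p of 0.392. Sample weights gave −2.91 to −0.50 for Ucp3 (limma adjusted p 0.388). Ucp3 had the largest of these differences, its Patch mean being 3.72-fold below the sham mean; its log2 difference was −0.95 without sham1 and −2.45 without sham2. Patch values lay wholly below sham for Sdha, Idh2 and Ucp3, 3 of the 6, against 9.37% of all genes, and wholly above it for 0 of the 6, against 9.18%. In CPM the same 3 genes lay below sham, against 6.41% of all genes. The sign for Atp5f1b turned without P699 (0.075) and with scaling to total reads (0.022) or by quantiles (0.35), and that for Ucp2 turned without sham1 (−0.40) and was 1.32 without sham2.

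**Figure D4:**
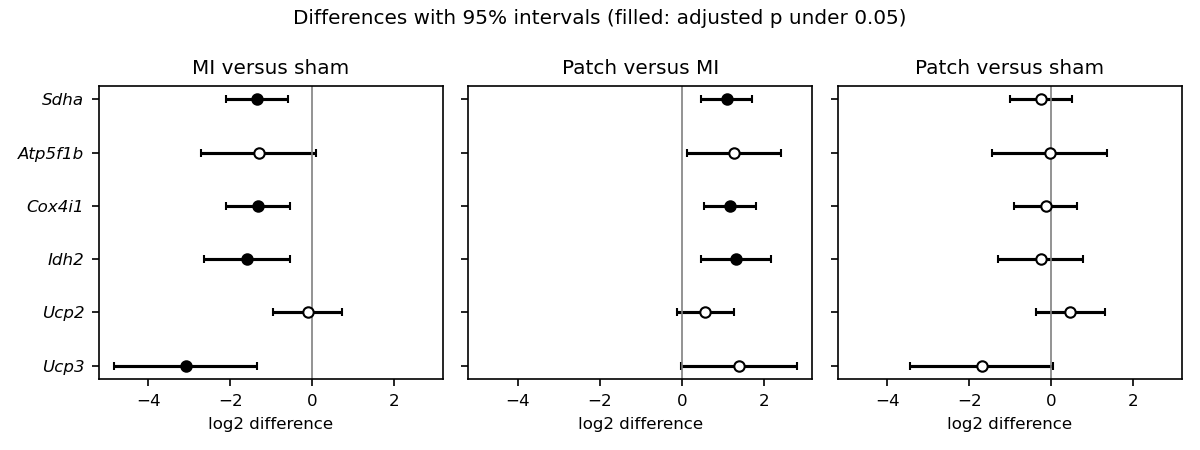
log2 differences of the 6 genes (points) with 95% intervals (lines) from limma, 1 panel per pair of groups (MI minus sham, Patch minus MI, Patch minus sham); filled points have an adjusted p under 0.05. The filled points are Sdha, Cox4i1, Idh2 and Ucp3 in the first panel and Sdha, Cox4i1 and Idh2 in the second, and the third panel has none.

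The spread within a group is given here as an SD. The SD of log2(signal + 1) of the respiration genes was 0.541 to 0.849 over the 4 MI libraries and 0.138 to 0.258 over the 4 Patch libraries. Without MI2 it was 0.217 for Sdha, 0.292 for Atp5f1b, 0.328 for Cox4i1 and 0.674 for Idh2. Without P695 the Patch SD of Sdha was 0.080, and without P699 that of Atp5f1b was 0.134. For Ucp3 it was 1.52 in MI, larger than in all but 10.8% of genes, and 0.187 in Patch; without MI165 it was 0.611 in MI, and without P695 it was 0.030 in Patch. Ucp2 had an SD of 0.327 in MI and 0.183 in Patch (0.119 without P697), both below the medians over all genes of 0.489 and 0.248.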

How the data were processed

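The labels describe 12 rat heart samples, 4 to a group. The labels describe poly-T selection, fragmentation, random-hexamer priming and PCR, and name no molecular identifiers, so counting intervals cover counting error only. The deposited table holds a normalized signal per Ensembl gene. Per the submitters' processing notes, HISAT2, SAMtools, featureCounts, DESeq2 and rn6 were used; versions, annotation, strand setting and the treatment of reads shared with near-identical copies are not given in the sources used here. In each library the deposited signal was a whole multiple of one step (100% of values within 0.01 of a whole read), so reads were recovered. Such scaling removes changes shared by most genes.

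Columns were assigned to groups by name; 2 columns (ctrl1, ctrl2) matched no label and were not used. Genes whose signal averaged 1 or more over the 10 libraries were kept (17091 of 19955). Differences were tested with limma 3.58.1 (R 4.3.3) on log2(signal + 1), all 3 groups in one fit with a mean-variance trend, at a Benjamini-Hochberg adjusted p under 0.05 over all genes. The added 1 compresses changes of genes near 0; for Ucp3, MI versus sham, adding 0.5 instead moved the difference from −3.09 to −3.13. edgeR 4.0.16 (quasi-likelihood) and DESeq2 1.42.0 on recovered reads were alternatives, and Python 3.11.15 was used for the rest. On simulated counts limma recovered 64% of genes changed 4-fold and 17% of those changed 2-fold for MI versus sham. For Patch versus MI it recovered 71% and 36%. In each of these comparisons 200 of the 17025 genes simulated and tested were changed. In the data limma called 2636 and 2251 genes, so the adjustment of p acts differently there. The recovery rates therefore describe the simulated counts only and not the tests of the genes described here.

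The members and lists were chosen with earlier results of these data known. The rule named all 6 members, the called extremes of preset pathway lists, and the 2 genes most like each member. Since 0 of the deposited IDs were found in the RefSeq gene table, the pathway and cell type lists were not analysed here, and only 2 like genes are given, by ID.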

Additional observations from a re-analysis of the deposited data

Results flagged for a closer look

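Ucp3 met a test for outlying libraries in both groups of 4, on the scale of signal. Its signal of 107.456 in MI165 was the highest of the MI libraries, where the next was 21.6. In Patch, its signal of 51.6643 in P695 was the lowest, where the next was 65.5; this gap comes from 46 reads in P695 and 64 in P985, and the exact 95% Poisson intervals (33.7 to 61.4 and 49.3 to 81.7 reads) overlap. The test was Dixon's, which sets the gap to the nearest library against the whole range. On the log2 scale MI165 no longer met it (gap of 0.65 of the range) and P695 did (0.859). Of 12 sets of 4 values (6 genes in 2 groups), 2 met it, both of Ucp3. The nominal rate of about 1 in 20 holds for independent, normally distributed values. These sets share libraries and Ucp3 has low counts, so the 2 cannot be set against that rate. The sham group had too few libraries for this test.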

How the results depend on the processing

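Scaling to total reads, which moved the median log2 difference of all genes to 0.24 (MI versus sham) and −0.17 (Patch versus MI), changed the share of calls that were higher from 47.3% to 73.5% and from 58.6% to 30.2%. The 2636 genes called in MI versus sham and 2251 in Patch versus MI were 2303 and 1802 with edgeR on recovered reads. For MI versus sham they became 5679 with sample weights, 599 with only the 2 groups compared, 1519 without the mean-variance trend, 2 with only the libraries with 1-digit names, and, with single libraries omitted, 7 (sham1) to 4979 (MI2), with 24 for sham2 and 1448 for MI162. For Patch versus MI they became 5383 with sample weights, 1437 with the 2 groups alone, 948 without the trend, 3679 in DESeq2, 5782 with only the libraries with 3-digit names, and, with single libraries omitted, 209 (P695) to 4821 (MI2), with 292 for P985, 611 for P697, 649 for MI162, 1446 for sham1 and 1440 for sham2. For Patch versus sham, 0 became 10 with sample weights and 15 in DESeq2; leaving out single libraries gave 0 to 2. Leaving out a sham library leaves 1, which is assumed to vary like the other groups. The fits by digits in the column names and without the trend, the CPM and MI2-free overlap counts and the SDs with libraries omitted were chosen after seeing the data; what the digits stand for is not stated.

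The 4 members called in MI versus sham became 1 with quantile scaling, 2 without the trend, 0 with the 2 groups alone, 0 with 1-digit names, and 0 to 5 without one library. The 3 called in Patch versus MI became 0 with quantile scaling, 1 without the trend, 1 with the 2 groups alone, 5 with 3-digit names, and 0 to 4 without one library. No member called in either comparison changed direction in its 22 alternatives. Reversed signs concerned Ucp2 in MI versus sham (total reads 0.13, quantiles 0.19, without sham2 0.74; −0.97 to 0.74 without one library), Atp5f1b in Patch versus sham (total reads 0.022, quantiles 0.35, sample weights 0.0049, without P699 0.075; −0.13 to 0.075 without one library) and Ucp2 in Patch versus sham (without sham1 −0.40; −0.40 to 1.32 without one library). The cause was not tested. No paired analysis was possible because column names such as MI162 carry numbers that the labels do not use for replicates. Depth limits Ucp3 most, with 11 to 314 reads.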
